A study of Homo sapiens with 19 samples.

Results

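The 10 genes described here carry the endoplasmic reticulum (ER) stress response and its protein-folding machinery: HSPA5, HSP90B1, PDIA4, DNAJB9, DNAJC3, SDF2L1, ERN1, XBP1, HERPUD1 and EDEM1. They were chosen by name, and each was found on the arrays through the RefSeq accession of its probe, 10 of the 20503 genes that could be named in this way. A probe was tested if it stood well above background on 5 or more of the 19 arrays, as did those of 9 of the 10 genes but not that of ERN1. The samples were KhES-3 cells, a human embryonic stem cell (hESC) line, grown in low-attachment dishes in a serum-free medium for brown adipocyte (BA) induction with IGF-II, BMP4, VEGFA, KITLG, FLT3LG and IL-6. Cells were harvested once at 3 h, 4 h and 6 h, then every 2 h to 16 h, every 4 h to 36 h and every 6 h to 72 h, so every sample shares the same line, medium and cytokines and differs in time, and neither an untreated sample nor a sample before induction is among them. There is 1 array for each time point and no replicate, and a change over time is therefore judged against how far the arrays scatter about a fitted line or curve. The labels place the parent culture on irradiated mouse embryonic fibroblasts, whereas the study's general methods name feeder-free maintenance.

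Secreted and membrane proteins fold in the ER. When unfolded proteins build up there, the sensors IRE1 (the product of ERN1), ATF6 and PERK (the product of EIF2AK3) are switched on, a reaction known as the unfolded protein response. IRE1 splices the XBP1 mRNA so that it encodes an active transcription factor, ATF6 is cut in the Golgi to release another, and PERK slows protein synthesis while favouring ATF4 and then DDIT3 (CHOP). The targets of these factors include the chaperones that fold proteins and the parts of ER-associated degradation (ERAD), which returns misfolded proteins to the cytosol for the proteasome.

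ATF6 and XBP1 are known to act on short promoter motifs together with the CCAAT-binding factor NF-Y. One is the ER stress response element (ERSE), which reads CCAAT, then 9 bases of any kind, then CCACG. The other is ERSE-II, which reads ATTGG, 1 base of any kind, then CCACG. Both were searched on either strand in windows from 250 bases before to 50 bases after each gene's start (RefSeq, GRCh38.p14), and all 10 genes had a window. ERSE was found in 3 of the 10 windows (HSPA5, HSP90B1 and XBP1) and in 22 of all 27305 (0.0806%), and ERSE-II in 2 of the 10 (HERPUD1 and SDF2L1) and in 15 of all 27305 (0.0549%). The windows of DNAJB9, ERN1, PDIA4, DNAJC3 and EDEM1 held neither motif. The stretches around the matches are printed here because they hold letters through which ATF6 and XBP1 are known to act. Each is written 5′ to 3′ in the direction of its gene with the motif letters in capitals, and a match on the opposite strand reads CGTGG before ATTGG (ERSE) or CGTGG before CCAAT (ERSE-II).
HSPA5 (chr9:125241379-125241421, minus strand): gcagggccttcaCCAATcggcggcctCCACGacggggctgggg
HSP90B1 (chr12:103930204-103930351, plus strand): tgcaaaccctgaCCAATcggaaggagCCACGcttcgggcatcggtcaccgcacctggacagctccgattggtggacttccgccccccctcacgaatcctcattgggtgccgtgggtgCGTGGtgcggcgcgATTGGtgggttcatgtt
XBP1 (chr22:28800591-28800633, minus strand): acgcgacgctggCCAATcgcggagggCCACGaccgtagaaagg
HERPUD1 (chr16:56932013-56932047, plus strand): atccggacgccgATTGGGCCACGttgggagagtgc
SDF2L1 (chr22:21642102-21642136, plus strand): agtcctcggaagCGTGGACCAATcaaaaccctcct

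HSP90B1 holds the motif on each strand, once from -194 to -176 and once from -89 to -71 relative to its start. In HSPA5 the match lies from -66 to -48 and in XBP1 from -52 to -34. The ERSE-II matches lie from -117 to -107 in HERPUD1 and from -188 to -178 in SDF2L1. The letters CCAAT alone, which every full match contains, occurred in all 10 windows against 35.7% of all windows, and CCACG alone in 9 against 37.9%. The unfolded protein response element (TGACGTG followed by G or A) was in 0 of the 10 windows and in 1.2% of all. Windows of other pathway genes, listed below, held such letters as well. Of 27 windows of other ER chaperones and foldases, 18 held CCAAT, 16 CCACG, 4 ERSE, 1 ERSE-II and 3 the unfolded protein response element. In the other lists ERSE and ERSE-II were in 0 windows, CCAAT in 39.1% to 56.2% and CCACG in 54.5% to 78.3%. The unfolded protein response element was in 3 of 23 windows of ERAD genes and 2 of 26 of translocon and signal peptide genes. It was in 0 of 16 windows of sensors and transcription factors and 0 of 11 of the PERK branch. A match describes these letters only, and the arrays did not measure binding.

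The arrays lay on 3 slides, with the 6 arrays from 3 to 12 h on the first, the 8 from 14 to 42 h on the second and the 5 from 48 to 72 h on the third, which was scanned on a later day. Time and slide overlap in part, and part of any trend cannot be told apart from the slide. The early arrays, at 3 to 6 h, all lie on the first slide, and the late arrays, at 60 to 72 h, all lie on the third. No part of a difference between the early and the late arrays can therefore be told apart from the slide or the day of scanning. Between 49.6% and 64.7% of the probes were well above background on an array. Signals are given relative to the 75th percentile of each array, on the scale of the 8 h array, and a signal is compared only with the same probe on other arrays. The probes' sequences were not analysed here, so the part of each transcript that a probe reads is not known, and neither XBP1 splicing nor any isoform was resolved. With bulk RNA, fewer cells that express a gene and less RNA per cell cannot be told apart. Of 11 pluripotent cell markers with a probe, all 11 were well above background on the 19 arrays, and their summed signal was 1062140 to 1076130 at 3 to 6 h and 778582 to 815496 at 60 to 72 h. Of 12 fibroblast markers, 6 were well above background on the 19 arrays, FAP on 0, and COL3A1 and LUM on 1 array each, with a summed signal of 69895 to 86964 early and 64034 to 79326 late.

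**Figure D1:**
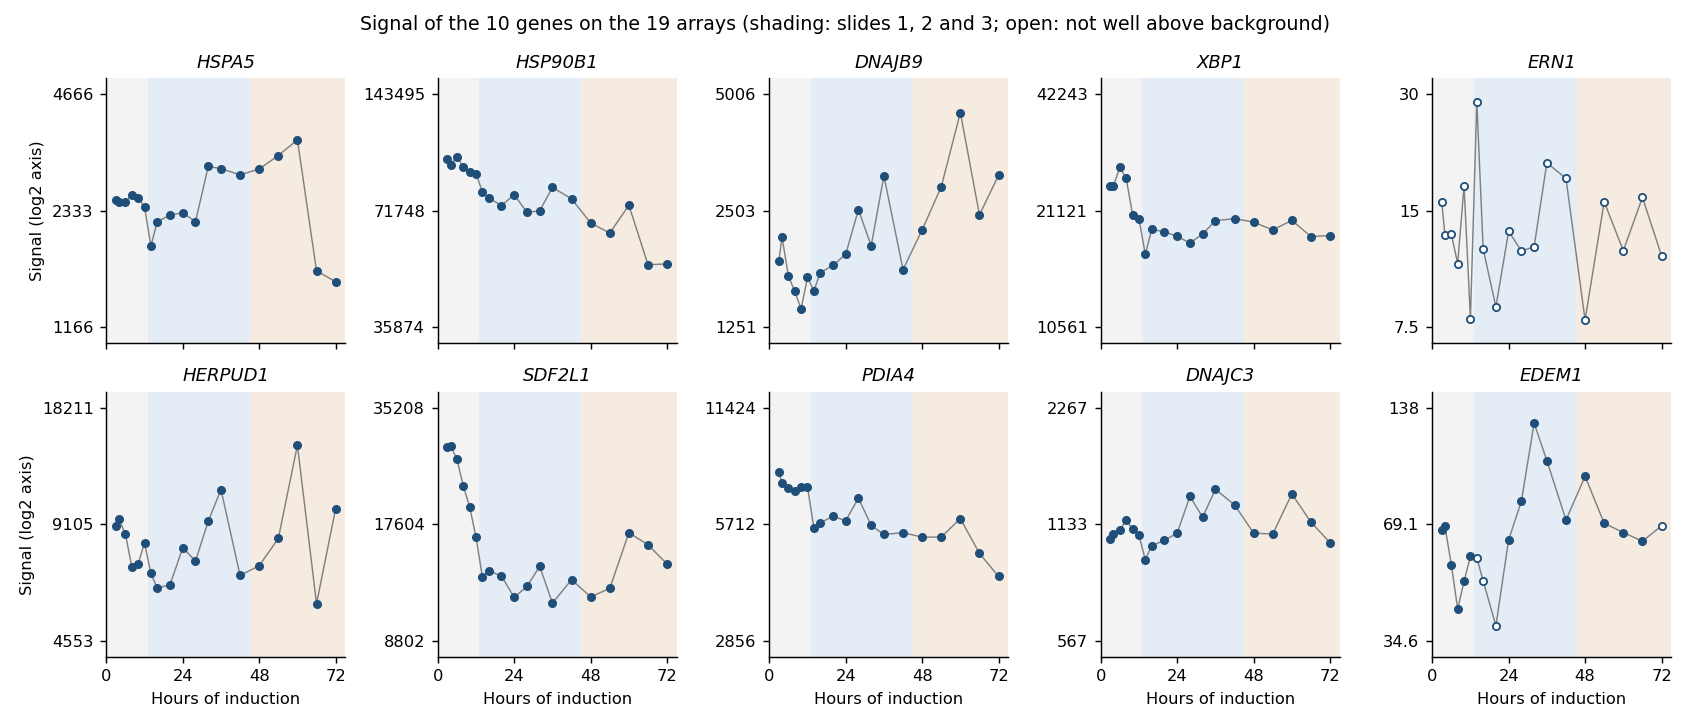
Signal of the probe of each of the 10 genes (log2 axis, relative to the 75th percentile of each array) against hours of induction, 1 point per array, with the 3 slides shaded and empty circles for points not well above background. HSPA5 lies highest at 60 h (3560) and lowest at 66 and 72 h (1631 and 1529), SDF2L1 falls over the first slide, DNAJB9 and HERPUD1 have high points at 36 and 60 h, and every ERN1 point is an empty circle.

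HSPA5 (BiP, chr9:125234853-125241343) is the ER member of the HSP70 family and the chaperone that holds the stress sensors inactive. Its signal lay between 2386 and 2560 on the 6 arrays of the first slide. It was 1892 at 14 h, between 2185 and 2305 from 16 to 28 h, and between 2889 and 3560 from 32 to 60 h. The last 2 arrays, at 66 and 72 h, stood at 1631 and 1529. The highest and the lowest of the 19 values thus both lie on the last slide, 12 h apart. A straight line did not describe this course (slope -0.00063 log2 per hour with a standard error, SE, of 0.0033, limma adjusted p = 0.887), but a cubic curve in hours did (limma F test, adjusted p = 0.000345), and its bend passed as well (adjusted p = 0.000437). Both still passed with the slide as a block (adjusted p = 0.00205 and 0.00146). From 3 to 54 h HSPA5 rose (slope 0.0086, SE 0.0027, adjusted p = 0.0166), and 25.6% of all probes rose in that fit.

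HSP90B1 (GRP94, chr12:103930410-103947926) is the ER member of the HSP90 family, with a short list of clients that includes integrins and Toll-like receptors. Its signal fell over the 3 days, from 97524, 94190 and 98954 at 3, 4 and 6 h to 74183, 52022 and 52271 at 60, 66 and 72 h. The early and the late arrays do not overlap. The mean of the late arrays was lower by 0.72 on the log2 scale, or 0.605 times the early level, and the slope was -0.0109 (SE 0.0015, limma adjusted p = 7.14e-06). A second probe of the gene fell too (slope -0.0060, SE 0.0023, adjusted p = 0.0334) and differed by -0.56 between the same windows. On each slide the slope of HSP90B1 was below 0, at -0.014, -0.00052 and -0.016 log2 per hour. Fitted with the slide as a block it did not pass over all arrays (-0.0064, SE 0.0039, adjusted p = 0.321).

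PDIA4 (ERp72, chr7:149003051-149028505), a disulphide isomerase with several thioredoxin-type domains, took the same direction. Its signal was 7786, 7320 and 7086 at 3, 4 and 6 h, and 5913, 4808 and 4190 at 60, 66 and 72 h, with no overlap. The difference was -0.59 on the log2 scale and the slope -0.0090 (SE 0.0015, adjusted p = 5.97e-05). Between 12 h (7160) and 14 h (5594), the step from the first to the second slide, it differed by -0.36, and its slope did not pass under the slide block either (-0.0068, adjusted p = 0.251).

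SDF2L1 (chr22:21642302-21644299), a stromal cell-derived factor 2-like ER protein that binds DNAJB11, had its fall in the first hours. On the 6 arrays of the first slide its signal was 27983, 28131, 25992, 22166, 19561 and 16326 in the order of time. It then stayed between 11016 and 13712 from 14 to 54 h and was 16759, 15591 and 13905 at 60, 66 and 72 h. The slope within the first slide was -0.089 log2 per hour. Over all arrays both the cubic curve (adjusted p = 3.16e-07) and its bend (adjusted p = 6.59e-06) passed, also with the slide as a block (adjusted p = 0.00584 and 0.00421). The straight line passed more narrowly (slope -0.0109, SE 0.0040, adjusted p = 0.0277), and no longer did without the 3, the 4 or the 6 h array (adjusted p = 0.0687, 0.0657 and 0.0588), after quantile normalization (slope -0.0063, adjusted p = 0.148) or with the slide as a block (slope -0.0019, adjusted p = 0.894).

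DNAJB9 (ERdj4, chr7:108569874-108574850) is a co-chaperone of HSPA5 known to keep IRE1 inactive. It was the only one of the 9 tested genes whose slope rose (0.0147, SE 0.0030, adjusted p = 0.000486). The signal was 1851, 2141 and 1699 at 3, 4 and 6 h and reached its lowest value, 1394, at 10 h. At 60, 66 and 72 h it was 4492, 2442 and 3093, all above the early arrays, a difference of 0.78 on the log2 scale or 1.71-fold. The course was uneven, with 3081 at 36 h between 2032 at 32 h and 1762 at 42 h. Scaled to the spike-in RNA the slope was 0.0072 and did not pass (adjusted p = 0.264).

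DNAJC3 (p58IPK, chr13:95677139-95794988), a co-chaperone of HSPA5 that also restrains PERK, stayed within a narrow range. Its 19 signals ran from 919 at 14 h to 1398 at 36 h with a median of 1077. Neither the slope (0.0022, SE 0.0018, adjusted p = 0.309) nor the cubic curve (adjusted p = 0.147) passed. With the slide as a block the cubic curve did (adjusted p = 0.0221).

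Of the stress sensor and its target factor, ERN1 (chr17:64039142-64130144) was not well above background on any array. Its signals ran from 7.82 to 28.8 with a median of 12.97 and were not tested, which says that this probe did not detect the transcript and not that the transcript is absent. XBP1 (chr22:28794560-28800569) was measured well, as the mean of 10 spots of its probe. Its signal was 24531, 24469, 27379 and 25613 at 3, 4, 6 and 8 h, then 20641 and 20157 at 10 and 12 h, and 16294 at 14 h, its lowest value. From 16 to 72 h it lay between 17437 and 20148, below all 4 of the first arrays. The cubic curve passed (adjusted p = 0.000824) and so did its bend (adjusted p = 0.00508), while the straight line missed the threshold (slope -0.0046, SE 0.0020, adjusted p = 0.0572). With the slide as a block the cubic curve did not pass (adjusted p = 0.211), although the slope within the first slide was -0.036 log2 per hour.

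The 2 ERAD genes differed in how well they were measured. HERPUD1 (chr16:56932142-56944864), a membrane protein that organises the ERAD ubiquitin ligase, had the most uneven course on the last slide. The signals of its 5 arrays, from 48 to 72 h, were 7120, 8377, 14603, 5677 and 10004 in turn, so that its highest and lowest values of the series were neighbours. An earlier high point stood at 36 h (11207), between 9284 at 32 h and 6720 at 42 h. No smooth trend was called, either for the slope (0.0030, SE 0.0034, adjusted p = 0.478) or for the cubic curve (adjusted p = 0.508). EDEM1 (chr3:5187707-5219958), which hands misfolded glycoproteins to ERAD, was dim and not well above background on 4 of the 19 arrays (14, 16, 20 and 72 h). It lay between 37.8 and 68.4 up to 24 h, reached 79.3, 126 and 101 on the next 3 arrays, and lay between 62.6 and 92.1 afterwards. Neither its slope (0.0074, SE 0.0041, adjusted p = 0.135) nor its cubic curve (adjusted p = 0.0726) passed over all arrays, whereas the slope from 3 to 54 h did (0.016, SE 0.0060, adjusted p = 0.0382).

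Of the 9 slopes, 1 rose (DNAJB9), where 27.4% of all 32113 probes tested rose, and 3 fell (HSP90B1, SDF2L1 and PDIA4), where 24.7% of all probes fell. The cubic curve passed for 6 of 9 against 75.9% of all probes, and its bend for 3 of 9 (HSPA5, XBP1 and SDF2L1) against 47.4%. With 1 probe per gene, 3556 of 16694 genes tested rose and 5461 fell, while the curve passed for 13273 and the bend for 8481. Read against these shares, the counts give no result about the 9 genes as a group. No tested gene reached a 2-fold difference between the means of the 3 latest and the 3 earliest arrays, where 9.56% of the probes were at least 2-fold higher and 6.08% at least 2-fold lower. The median difference was -0.25 on the log2 scale, against -0.11 over the 16694 genes tested and 0.068 over all probes. It was -0.48 without the 60 h array and -0.035 without the 72 h array.

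Fitted with the slide as a block, 0 of the 9 slopes passed, while 8.89% of all probes did in one direction or the other. The cubic curve then passed for 3 (HSPA5, SDF2L1 and DNAJC3) against 31.7% of all probes, and its bend for 2 (HSPA5 and SDF2L1) against 19.9%. The slope nearest the threshold under the block was that of DNAJC3 (0.012, SE 0.0045, adjusted p = 0.106). From 3 to 54 h, 3 slopes rose (HSPA5, DNAJB9 and EDEM1) and 3 fell (HSP90B1, SDF2L1 and PDIA4), where 23.2% of all probes fell.

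**Figure D2:**
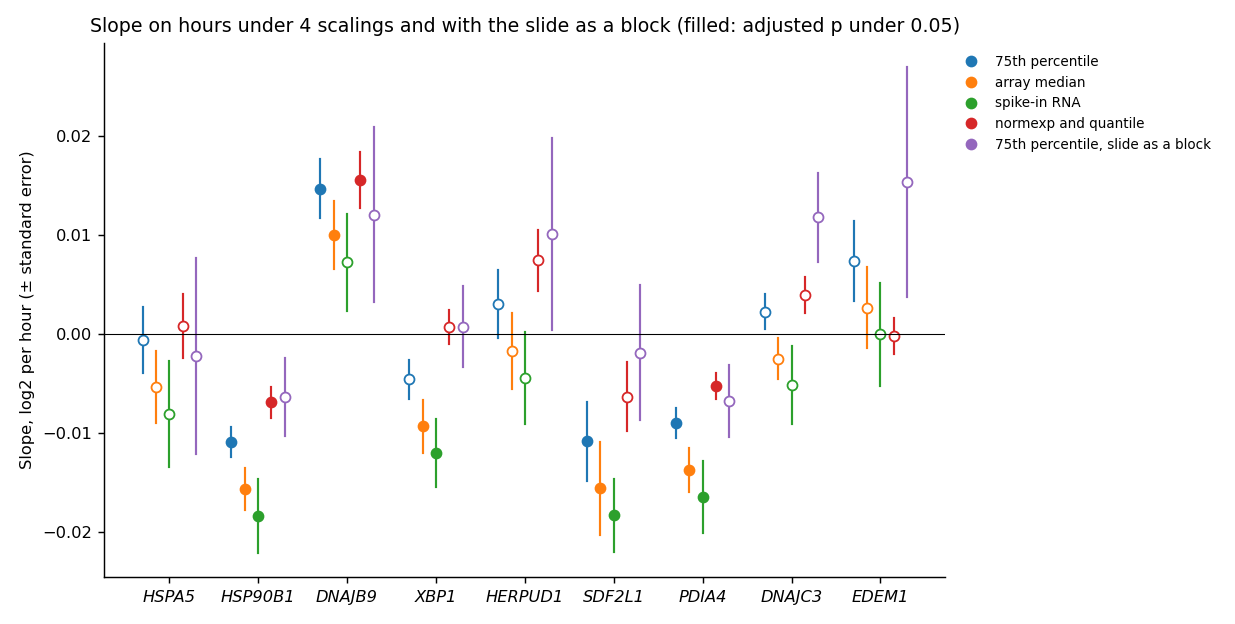
Slope on hours (log2 per hour) of the 9 tested genes, with bars of 1 standard error and filled points at an adjusted p under 0.05, for 4 scalings of the arrays and for the fit with the slide as a block. HSP90B1 and PDIA4 are below 0 and filled under all 4 scalings, and no point of the fit with the slide as a block is filled.

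The choice of scaling moved the whole group. The spike-in RNA is a set of control transcripts added to each sample. Between the early and the late arrays all probes shifted by a median of 0.068 as scaled here, of -0.27 if scaled to the array median, of -0.52 if scaled to the spike-in RNA, and of 0.0048 after normexp background correction and quantile normalization. HSP90B1 and PDIA4 fell under all of these, and DNAJB9 had a slope above 0 under all of them. XBP1 fell with the array median (slope -0.0093, adjusted p = 0.00699) and the spike-in RNA (slope -0.012, adjusted p = 0.00781), but had a slope of 0.00067 after quantile normalization (adjusted p = 0.778).

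Steps between neighbouring arrays carried the sharpest differences of this gene group, and they have no test because each end is 1 array. All 9 tested genes were lower at 66 than at 60 h, both on the third slide, against 45.2% of all probes. HERPUD1 differed by -1.36 and HSPA5 by -1.13 on the log2 scale, and these 2 were the genes at least 2-fold lower, as were 1.52% of the probes. The next were DNAJB9 at -0.88 and HSP90B1 at -0.51. The 9 genes were lower at 66 h under each of the other scalings, where 94.4% of all probes were lower with the spike-in RNA and 56.4% with the array median. Of the 118 other pathway genes, 82 were lower at 66 h as scaled here, with a median difference of -0.11, beside -0.30 for the 9 genes. All 118 were lower with the spike-in RNA, 95 with the array median and 80 after quantile normalization.

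The preceding step went the other way. At 60 h, 8 of the 9 (all but EDEM1) were higher than at 54 h, against 49.1% of all probes. Of the 118 other pathway genes, 73 were higher at this step, with a median difference of 0.042. HERPUD1 differed by 0.80 and DNAJB9 by 0.64, higher than 97.7% and 95.9% of the probes. Scaled to the spike-in RNA, however, 3 of the 9 were higher, beside 10.9% of all probes, and the spike-in signal itself ran from 13.38 to 14.11 on the log2 scale over the arrays. HERPUD1 was again higher by 0.82 at 72 than at 66 h, a step that was 0.83 with the spike-in RNA and 0.76 with either the array median or quantile normalization. The step from 36 to 42 h, on the second slide, was -0.81 for DNAJB9 and -0.74 for HERPUD1, and 6 of the 9 genes were lower there, against 48.2% of all probes. At that step 70 of the 118 other pathway genes were lower. All 9 were also lower at 14 than at 12 h, where the slide changes, with a median difference of -0.26 on the log2 scale, against 66.9% of all probes and a median of -0.16 over these.

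**Figure D3:**
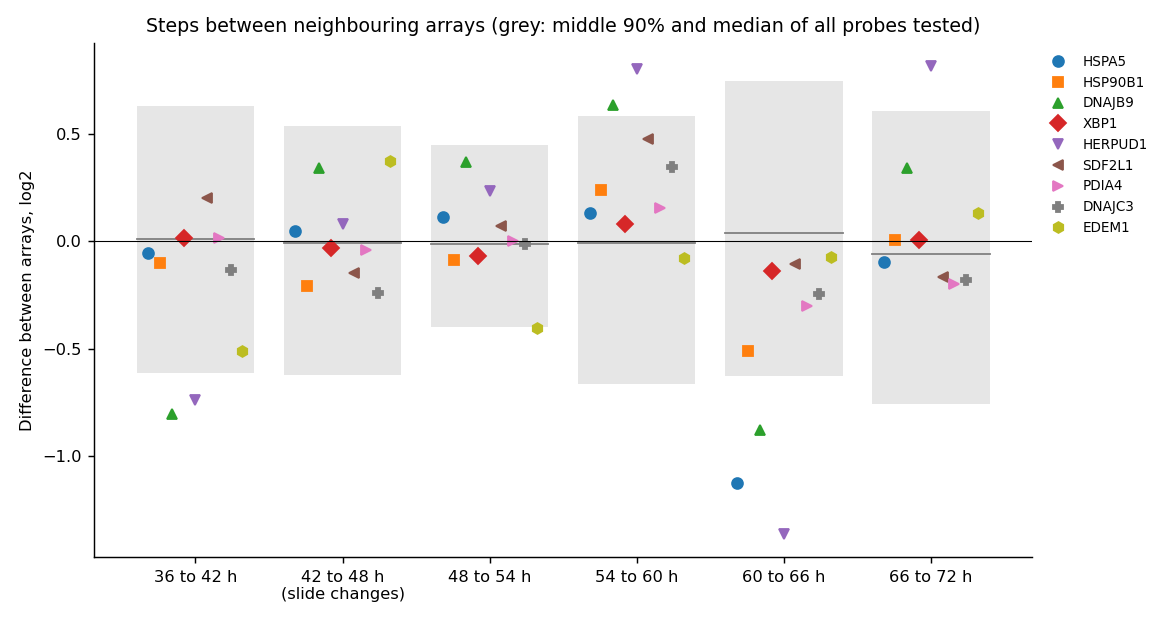
Log2 difference between neighbouring arrays for the 9 tested genes at the last 6 steps, with the middle 90% and the median of all probes tested in grey. All 9 points lie below 0 from 60 to 66 h, with HERPUD1, HSPA5 and DNAJB9 below the grey box. HERPUD1 and DNAJB9 lie above the box from 54 to 60 h and below it from 36 to 42 h. HERPUD1 also lies above it from 66 to 72 h.

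The 9 courses were compared pair by pair over the 19 arrays, as a description, since the arrays share time order, slide and scaling. Pearson's r over the 36 pairs ran from -0.54 (HSP90B1 and DNAJB9) to 0.88 (HSP90B1 and PDIA4, Spearman's rho 0.79). After a straight line in hours was removed from each course, 33 of 36 pairs had an r above 0, with a median of 0.39. The 36 pairs come from 9 genes, and pairs of other genes were not counted. The number is therefore no result about the group. DNAJB9 and HERPUD1 then had the highest r, 0.81, and it was 0.84 with the slide means removed as well and 0.70 without the 60 h array. XBP1 and SDF2L1, both highest in the first 8 h, had an r of 0.84 (rho 0.63), 0.79 without the line and 0.46 without the slide means. Of the genes that hold ERSE, HSPA5 and HSP90B1 had an r of 0.34 (rho 0.11), HSPA5 and XBP1 of 0.27 and HSP90B1 and XBP1 of 0.68, and without the line these were 0.68, 0.29 and 0.58. HERPUD1 and SDF2L1, which hold ERSE-II, had an r of 0.17, and of 0.34 without the line.

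Among 13969 genes well above background on all 19 arrays, the course of PDIA4 was most like that of PDIA3, another disulphide isomerase of the ER (r = 0.96, rho = 0.90). Other nearest courses were FBLN5 for HSP90B1 (r = 0.96, rho = 0.92), PHLDA2 for SDF2L1 (r = 0.97, rho = 0.90), NFAT5 for DNAJB9 (r = 0.94, rho = 0.93), LUZP1 for XBP1 (r = 0.92, rho = 0.92) and NPPC for HERPUD1 (r = 0.88, rho = 0.82). HSPA5 was followed most closely by ABAT (r = 0.91), CCAR1 (0.89), R3HDM4 (0.86), NAALADL1 (0.85) and CDH15 (0.84).

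GDF15, a secreted stress-responsive cytokine and the gene the study followed, was higher at 36 than at 42 h and at 60 than at 54 or 66 h. So were DNAJB9, HERPUD1, HSPA5, HSP90B1 and DNAJC3, but not XBP1, SDF2L1, PDIA4 and EDEM1. From 36 to 42 h HSPA5 differed by only -0.054, HSP90B1 by -0.098 and DNAJC3 by -0.13. Of all probes, 48.2% were lower at 42 than at 36 h, 49.1% higher at 60 than at 54 h and 45.2% lower at 66 than at 60 h. The share with all of these steps was not counted. GDF15 was highest at 72 h. Its signal was 27647 and 13346 at 36 and 42 h, and 18170, 66813, 54117 and 75849.9 at 54, 60, 66 and 72 h. Over the 19 arrays r with GDF15 ran from -0.65 for HSP90B1 (rho -0.55) and -0.60 for PDIA4 (rho -0.49) to 0.50 for HERPUD1 (rho 0.49) and 0.78 for DNAJB9 (rho 0.70). Without the straight line it ran from -0.13 for HSPA5 to 0.56 for SDF2L1 and 0.60 for HERPUD1, and was 0.42 for DNAJB9, 0.34 for HSP90B1 and 0.38 for PDIA4. With the slide means removed as well, it ran from -0.24 for XBP1 to 0.53 for DNAJB9 and 0.56 for HERPUD1. It was then 0.23 for SDF2L1, 0.11 for HSP90B1 and 0.09 for PDIA4.

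The rest of the pathway was read from 5 lists of 119 other genes, of which 118 were tested. Of these, 24 rose and 52 fell, and the median difference between the late and the early arrays was -0.29 on the log2 scale. Over all 16694 genes tested, 3556 rose and 5461 fell, with a median of -0.11, and the counts of each list are read against these. The split depended on the scaling. For the other settings the comparison is with probes and not with genes, and in the main fit 8798 of the 32113 probes rose and 7935 fell. Under the array median 5 rose and 68 fell, where 4323 of the 32113 probes rose and 11560 fell. Under the spike-in RNA it was 2 and 68, beside 1485 and 11186 of the probes, and after quantile normalization 29 and 35, beside 7158 and 7170. With the slide as a block 2 rose (CREB3L3 and CRELD1) and 8 fell (CALR, CRELD2, TXNDC5, MESD, DERL2, UBE2J1, UFD1 and NFYC), where 1567 of the probes rose and 1289 fell.

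Of 29 tested ER chaperones and foldases, 14 fell, 4 rose and 11 did not pass. CALR, the calcium-binding lectin chaperone calreticulin, fell from a mean of 135643 to 70878 (-0.94, adjusted p = 6.99e-09). TXNDC5, a thioredoxin-domain oxidoreductase, differed by -1.05, CRELD2 by -1.02, the HSPA5 co-chaperone DNAJB11 by -0.95 and PDIA3 by -0.74, and all of these fell under each of the 4 scalings. HYOU1, the nucleotide exchange factor of HSPA5, fell by 0.61 (adjusted p = 0.0194). The genes that rose with the largest differences were CRELD1 (1.00), the oxidase ERO1A (0.91) and SIL1 (0.49), another nucleotide exchange factor of HSPA5. Of these CRELD1 was called under all 4 scalings, and ERO1A was not with the array median or the spike-in RNA. SIL1 was called under none of the other 3 scalings (adjusted p = 0.687 under the array median, 0.147 after quantile normalization and 0.737 under the spike-in RNA, with a slope below 0). ERO1A was highest at 36 h (7907, late mean 2788) and SIL1 at 32 h (305, late mean 270). Both bends passed (limma F test, adjusted p = 0.00126 and 0.00198).

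Among the 28 ERAD genes, 12 fell and 7 rose. The ubiquitin-conjugating enzyme UBE2J1 fell from 543 to 175 (-1.63, adjusted p = 5.63e-05), the largest fall among the tested genes of the 5 lists. UFD1, a cofactor of the segregase VCP, differed by -1.07 and DERL2, a channel component, by -1.04. NGLY1, which removes glycans from retrotranslocated proteins, rose by 0.63 (adjusted p = 0.0465), EDEM3 by 0.56 (adjusted p = 0.00538) and SEL1L, the scaffold of the ERAD ligase, by 0.50 (adjusted p = 0.0472). None of the 3 was called with the array median or the spike-in RNA. NGLY1 was highest at 28 h (47099, late mean 23097) and SEL1L at 36 h (1195, late mean 899). Both bends passed (limma F test, adjusted p = 4.92e-05 and 0.00202).

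Among the 18 sensors and transcription factors, 8 rose and 5 fell. CREB3L3, an ER-anchored factor best known from liver, rose from 126 to 484 (1.94, adjusted p = 1.09e-08), also with the slide as a block (adjusted p = 0.00183). BLZF1 (1.07) and the NF-Y subunit NFYA (0.84) rose as well. Neither was called when scaled to the spike-in RNA, nor was NFYA under the array median or BLZF1 after quantile normalization. The other NF-Y subunits fell, NFYB by 0.67 (adjusted p = 0.0113) and NFYC by 0.53 (adjusted p = 3.61e-06), as did CREB3L2, by 0.53 (adjusted p = 3.31e-05), which was not called after quantile normalization (adjusted p = 0.0646). EIF2AK3 went from 876 to 601 (-0.54, adjusted p = 0.0968) and ATF6 from 1082 to 848 (-0.35, adjusted p = 0.0709), neither of which passed, although both did with the array median and the spike-in RNA.

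In the PERK branch, 3 of 12 rose and 4 fell. DDIT3 rose from 661 to 1385 (1.07, adjusted p = 0.00419), with its highest value at 60 h, but was not called with the spike-in RNA (adjusted p = 0.225), and VLDLR (0.66) and the phosphatase subunit PPP1R15A (0.46) rose too, but were called neither under the array median nor under the spike-in RNA. ATF4 itself fell from 136169 to 91862 (-0.57, adjusted p = 0.00159). CHAC1 (-0.94) and SESN2 (-0.93) fell as well, CHAC1 not after quantile normalization (adjusted p = 0.214). Of the 31 translocon and signal peptide genes, 17 fell and 2 rose. SRP19 (-1.15) and SRP72 (-0.88), both protein parts of the signal recognition particle, and the signal peptidase subunit SPCS2 (-0.70) had the largest falls, and SRP54 (0.53) and SRPRA (0.31) rose. Neither rise was called under the array median or the spike-in RNA, where SRPRA had a slope of -0.0026 with the latter.

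**Figure D4:**
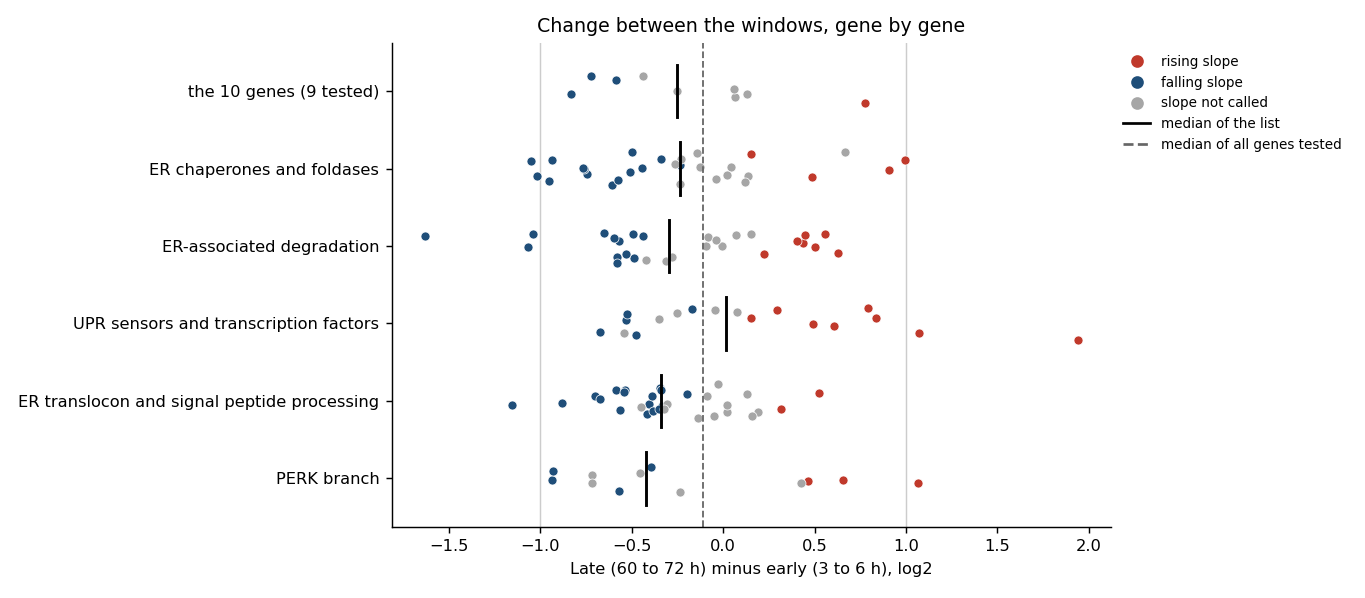
Difference between the mean log2 signal at 60 to 72 h and at 3 to 6 h for every tested gene of the 10 and of the 5 lists, coloured by the call of the slope, with list medians as black bars and the median of all genes tested (-0.11) dashed. The chaperone, ERAD and translocon lists have more falling than rising genes, and the sensor and factor list reaches from -0.67 to 1.94.

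Secretory and endoderm-type genes were read over the same hours. Their 12 markers had a summed signal of 3323 to 4041 at 3 to 6 h and of 4308 to 9780 at 60 to 72 h. Of the 10 that were tested, 4 rose (TTR, APOA1, APOA2 and APOB), 2 fell (AFP and FOXA2) and 4 were not called. Over all 16694 genes tested, 3556 rose and 5461 fell. FGA was not well above background on any array. Whether these markers bear on the courses of the 10 genes was not tested.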

How the data were processed

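RNA of KhES-3 cells at 19 time points of BA induction was labelled with Cy3 and hybridised to 1-colour Agilent arrays, 1 per time point. The authors deposited the output of Agilent Feature Extraction 10.10.1.1, in which each spot has a background-subtracted processed intensity, with raw pixel intensities and detection flags, and a table of intensities, each column of which equals the processed intensity times 1 factor per array that brings the 75th percentile to that of the 8 h array. Flagged spots (0.632%) were left out, repeated spots were averaged by probe, and the 75th percentile over 50683 probes was subtracted from the log2 intensity. Probes were named through RefSeq accessions (28174 probes, GRCh38.p14), and the probe with the highest mean stood for a gene.

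Slopes on hours and F tests of a cubic polynomial were fitted with limma 3.58.1 (R 4.3.3) over 32113 probes (well above background on 5 or more arrays), with Benjamini-Hochberg adjustment over all of them and a threshold of 0.05, after tests on simulated data. Time points are not replicates, the p-values measure scatter around a curve, and precision is limited by how many arrays there are. The members and lists were chosen with earlier results of these data known. All 10 genes are named, with the 3 largest called rises and falls of each list, 8 genes of the pathway (EIF2AK3, ATF6, ATF4, DDIT3, HYOU1, CALR, PDIA3 and SEL1L), and the genes with the most similar course, of which that for DNAJC3 is not reported here. MESD, and the markers, stand outside this rule and were named after their values were seen. Alternatives were other scalings, the deposited table, other filters, log2 hours, the slide as a block, 3 to 54 h, a spline, other windows and each array left out.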

Additional observations from a re-analysis of the deposited data

How the results depend on the processing

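No paired analysis was possible because no time point was measured more than 1 time. With the array median, 5 of the 9 bends passed and 5 genes of the pathway lists rose, and the median late minus early change of the 9 genes was -0.59. With the spike-in RNA, 7 bends passed, 0 of the 9 slopes and 2 genes of the lists rose, the median was -0.84 and 3 genes were higher at 60 than at 54 h, a check added after seeing the data, like every scaling of the steps. With the slide as a block, 0 slopes rose, 0 fell, 3 cubic curves passed, and in the lists 2 rose and 8 fell. From 3 to 54 h 3 slopes rose. The median was -0.0235 for 48 to 72 h minus 3 to 12 h. Slopes changed sign, without passing unless stated, for HERPUD1 (-0.0017) and DNAJC3 (-0.0025) with the array median, for HERPUD1 (-0.0044), DNAJC3 (-0.0052) and EDEM1 (-7.75e-05) with the spike-in RNA, for HSPA5 (0.00076), XBP1 (0.00067) and EDEM1 (-0.00025) after quantile normalization, for HSPA5 with log2 hours (0.0059) and from 3 to 54 h (0.0086, passing), and for XBP1 with the slide as a block (0.00071). With each array left out, the slope ran from -0.0030 to 0.0037 for HSPA5 and from -0.000185 to 0.0062 for HERPUD1, 2 to 4 slopes fell, 1 rose, 6 or 7 curves and 3 or 4 bends passed, the lists had 48 to 53 falling and 18 to 23 rising genes, and the median ran from -0.48 to -0.0349. The cause of these shifts was not tested. EDEM1 and ERN1 are limited by signal over background.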
